A study of Homo sapiens with 15 samples.

Results

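The 64 genes described here encode the secreted and membrane-bound metalloproteinases of 3 related families and their inhibitors: 22 matrix metalloproteinases (MMPs), 21 ADAMs, 17 ADAMTS proteases and 4 tissue inhibitors of metalloproteinases (TIMPs). They were taken by the form of the gene symbol from the 18417 named genes of an array study of human umbilical vein endothelial cells (HUVEC), and each was read from its probeset with the highest mean over all arrays. ADAM5 and ADAM6 are pseudogenes in human. MMP23A, MMP23B, ADAM7, ADAMTS7 and ADAMTS15 have symbols of the same form and were not analysed here.

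MMPs are zinc-dependent proteases that cut collagens, proteoglycans and other matrix proteins, and several are made as inactive proenzymes that need a cut to become active. ADAMs are membrane proteins, and those with an intact zinc-binding sequence release the outer domains of growth factors, cytokines and receptors from the cell surface. ADAMTS proteases are secreted and include enzymes that cut the proteoglycans aggrecan and versican, the N-propeptides of procollagens, and von Willebrand factor. TIMPs bind the active site of these enzymes, and in endothelium the balance between protease and inhibitor is known for its part in sprouting, vessel stability and barrier function.

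RNA was measured on 15 Affymetrix whole-transcript arrays in 5 groups of 3. One group was HUVEC kept for 6 h with exosomes, small secreted vesicles, of the CD47+ T cell leukaemia line Jurkat (JK). Another was HUVEC kept for 6 h with exosomes of JINB8, a mutant Jurkat line that lacks CD47, the receptor for thrombospondin-1. The remaining groups were RNA of JINB8 exosomes, RNA of JK exosomes and untreated HUVEC. JINB8 is a single mutant line, so the lack of CD47 and any other difference of that line from Jurkat cannot be told apart. The exosomes were precipitated from medium with human serum, and the arrays analysed here hold no control vesicles from other cells.

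The untreated arrays stood apart before any comparison. Their probeset medians averaged 6.97 on the deposited log2 scale, while those of the JK-treated and JINB8-treated arrays averaged 5.14 and 5.11. Values against untreated HUVEC are therefore given after quantile normalization over the 9 HUVEC arrays, and whatever put the untreated arrays on another level cannot be told apart from treatment. As deposited, the median log2 change of all genes against untreated HUVEC was -1.68 with JK exosomes and -1.71 with JINB8 exosomes, and 0 of the 64 genes were called higher, so each rise given below is relative to that shift. On that scale 18319 of all 18417 genes were called in either direction with JK exosomes and 18286 with JINB8 exosomes. All 10 endothelial markers (PECAM1, CDH5 and others) lay above the array median in each HUVEC group, and all 10 T cell markers lay among the lowest 40% of genes there. Of 9 markers of mural cells and fibroblasts, 3 lay above the median in each treated group and 4 in untreated HUVEC. The summed linear signal of this list as deposited was 1380 to 1457 with JK exosomes, 1476 to 1663 with JINB8 exosomes and 5626 to 6242 in untreated HUVEC. In the same order the endothelial list summed to 11408 to 13229, 12201 to 13487 and 25156 to 29350. The T cell list summed to 124 to 140, 120 to 134 and 457 to 557. Each of these sums was higher in untreated HUVEC, whose deposited values lay on a higher level. TAGLN, a smooth muscle gene of that list, exceeded 18.7% and 20.3% of genes in the JK-treated and JINB8-treated arrays and 93.4% in untreated HUVEC. No other gene of the mural cell and fibroblast list moved by as much. In the same order ACTA2 exceeded 71.1%, 70.1% and 65.2% of genes, and PDGFRB 31.4%, 29.1% and 26.8%. RGS5 exceeded 97.9%, 98.2% and 98.8%, and COL3A1 45.2%, 44.4% and 49.2%. CSPG4 and COL1A1 ranked higher in each treated group, DCN ranked lower, and LUM ranked lower with JK and higher with JINB8 exosomes. The part of mural cells and fibroblasts in the results below was not tested. In such bulk RNA, fewer cells of a type and less RNA per cell cannot be told apart.

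With JK exosomes, 28 of the 64 genes passed the test against untreated HUVEC, 13 higher and 15 lower. Over all genes, 48.6% passed, 26.2% higher and 22.4% lower, so the share of the protease and inhibitor genes was close to the background. Median centring of the arrays instead gave 21 higher and 14 lower, beside 35.1% and 19.5% of all genes. At a threshold of 2-fold, 2 genes were higher (TIMP3 and ADAMTS18) and 5 were lower (ADAM12, ADAMTS1, ADAMTS6, ADAMTS4 and MMP10), against 2.27% and 3.45% of all genes. The median log2 change was 0.06 over the 64 genes and 0.02 over all genes.

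JINB8 exosomes gave 28 genes past the test as well, 14 higher and 14 lower, beside 49.3% of all genes, 26% higher and 23.3% lower. With median centring the split was 24 higher and 11 lower, beside 38.1% and 18.7% of all genes. The 2-fold threshold was passed by 3 higher genes (TIMP3, ADAM32 and ADAMTS18) and by 5 lower genes (ADAM12, ADAMTS1, ADAMTS6, ADAMTS4 and MMP10), against 2.55% and 3.52% of all genes. Both comparisons share the same 3 untreated arrays, so their agreement is not independent. Under quantile normalization, median centring and cyclic loess alike, 9 genes were called higher and 11 lower with JK exosomes (21% and 15.9% of all genes), and 12 higher and 9 lower with JINB8 exosomes (21.6% and 15.6%). By signal, 34 of the 64 genes lay among the dimmest 40% of genes in HUVEC, where 6 were called higher and 5 lower with JK exosomes, beside 19.2% and 19.7% of all genes in that range.

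**Figure D1:**
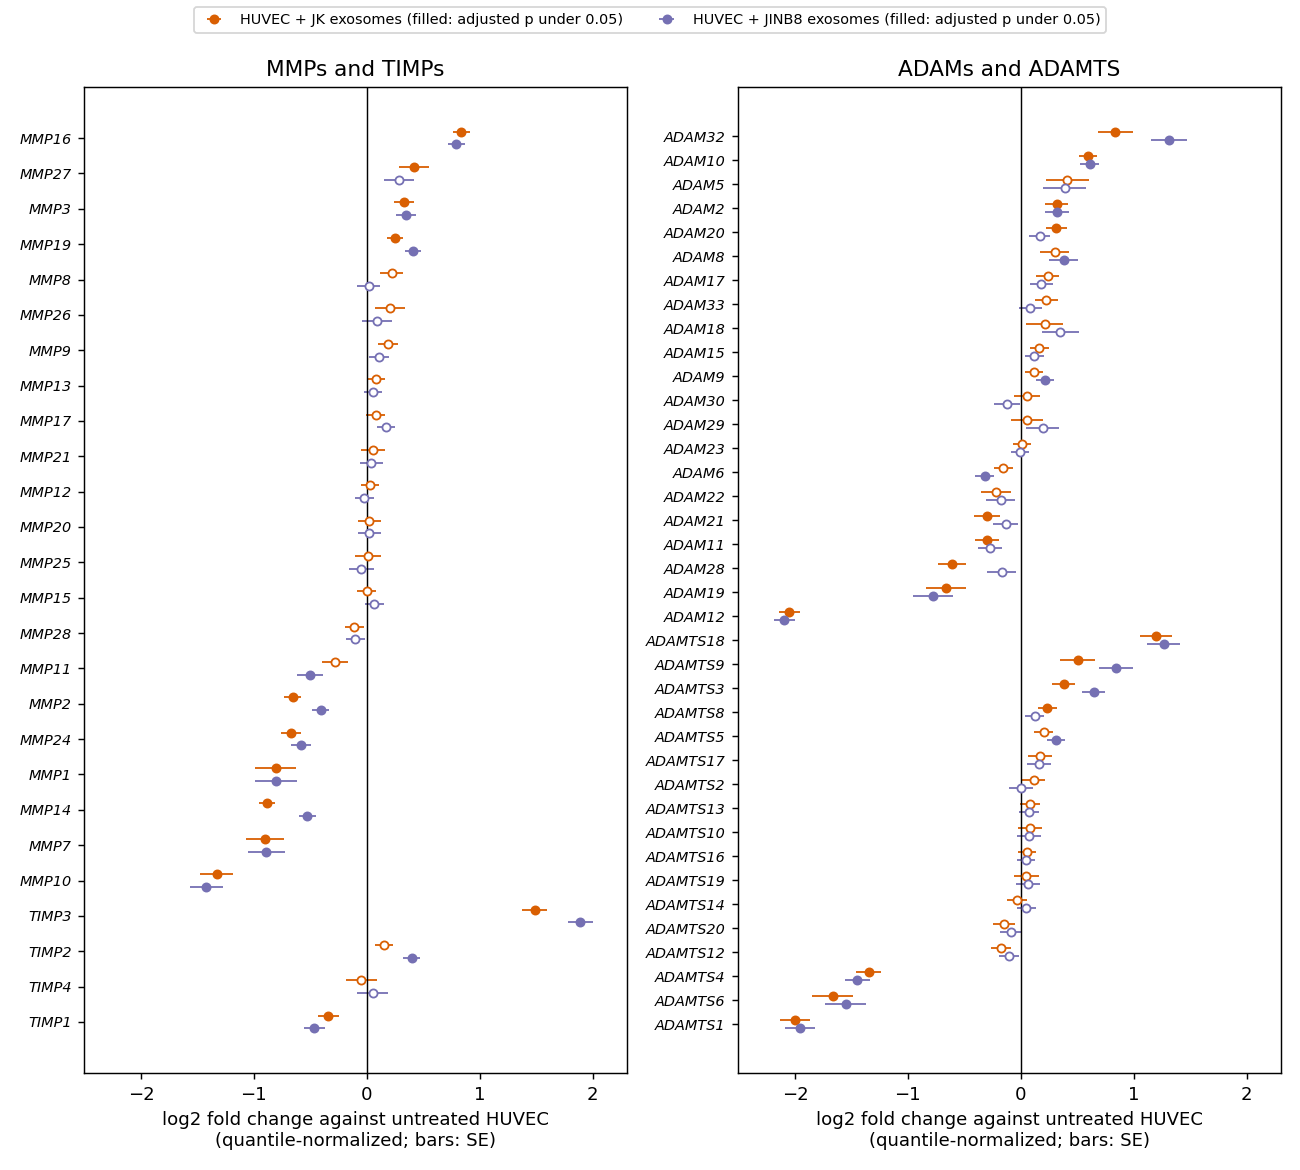
Log2 fold change of each of the 64 genes in HUVEC with JK exosomes (orange) and with JINB8 exosomes (purple) against untreated HUVEC, on quantile-normalized values, with SE bars and filled points for adjusted p under 0.05. TIMP3 and ADAMTS18 lie furthest to the right within their families, and ADAM12, ADAMTS1 and MMP10 lie furthest to the left within theirs.

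Among the MMPs, the stromelysin MMP10, which cuts proteoglycans and activates procollagenases, was lower in the treated cells. Its normalized log2 signal was 6.58, 6.55 and 6.08 with JK exosomes, 6.26, 6.11 and 6.57 with JINB8 exosomes, and 7.85, 7.67 and 7.68 in untreated HUVEC. Every treated array lay below every untreated one. The log2 change was -1.33 ± 0.15 (SE, adjusted p = 2.69e-05) with JK exosomes and -1.42 ± 0.15 (adjusted p = 1.57e-05) with JINB8 exosomes.

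The matrilysin MMP7, a small protease that cuts matrix and cell surface proteins, is named here after its values were seen. It had 4.32, 4.29 and 4.20 with JK exosomes, 4.42, 4.15 and 4.28 with JINB8 exosomes, and 5.56, 5.22 and 4.74 in untreated HUVEC. The treated groups overlapped each other and lay below the untreated arrays, which were spread over a wider range. MMP7 fell by 0.90 ± 0.17 on the log2 scale in JK-treated cells (adjusted p = 0.000968) and by 0.89 ± 0.17 in JINB8-treated cells (adjusted p = 0.00101), and its treated levels lay among the dimmest 40% of genes.

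AP-1, the Fos and Jun transcription factor, is known to bind a short element in the promoters of several MMP genes. Its sequence TGANTCA, which reads the same on both strands, was searched from 250 bases before to 50 bases after each RefSeq gene start (GRCh38.p14). It was present in 4 of the 37 promoters found for these genes (10.8%) and in 2120 of 27305 promoters in all (7.76%). The 4 were MMP10, MMP7, MMP20 and ADAMTS12. The other 27 genes, MMP1, MMP2, ADAMTS1 and ADAMTS4 among them, were not searched. The 120 bases before the start are shown for MMP10 and MMP7, whose matches both begin 67 bases before the start, and for TIMP3, which moved the other way and whose window held no match. Capitals mark the match, and each sequence reads 5′ to 3′ on the gene's strand.
MMP10 (chr11:102780629-102780748, minus strand): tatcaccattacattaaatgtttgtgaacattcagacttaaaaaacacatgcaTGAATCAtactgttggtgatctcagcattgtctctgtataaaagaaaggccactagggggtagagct
MMP7 (chr11:102530748-102530867, minus strand): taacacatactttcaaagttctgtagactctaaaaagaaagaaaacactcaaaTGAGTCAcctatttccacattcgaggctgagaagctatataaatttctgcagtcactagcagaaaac
TIMP3 (chr22:32801585-32801704, plus strand): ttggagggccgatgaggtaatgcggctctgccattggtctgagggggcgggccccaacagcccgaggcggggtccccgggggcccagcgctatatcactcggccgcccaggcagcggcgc
A match is a stretch of letters and was not set against any binding data. ADAM12, ADAMTS6, MMP24 and ADAM19 were also lower with each exosome, and their promoters were searched and held no match. Like MMP10 and MMP7, MMP20 and ADAMTS12 hold a match, and neither passed the test with either exosome on the quantile scale. With median centring ADAMTS12 was called lower with JK (-0.37) and JINB8 exosomes (-0.27). With cyclic loess it was called lower with JK exosomes (-0.28), so the ADAMTS12 call rests on the scaling.

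The collagenase MMP1, which opens the triple helix of fibrillar collagens, had 11.65, 11.54 and 10.91 with JK exosomes, 11.22, 11.20 and 11.70 with JINB8 exosomes, and 12.14, 12.13 and 12.26 in untreated HUVEC. Replicate 3 was the lowest JK-treated array for MMP1 and for MMP10, and replicate 3 was the highest JINB8-treated array for both. The change in MMP1 was -0.81 ± 0.18 in JK-treated cells (adjusted p = 0.00372) and -0.80 ± 0.18 in JINB8-treated cells (adjusted p = 0.00374). With median centring it was -0.08 and -0.04 and did not pass, so the MMP1 call rests on the scaling.

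The gelatinase MMP2, which degrades denatured collagen and collagen IV, gave 11.30, 11.22 and 11.23 with JK exosomes, 11.46, 11.50 and 11.54 with JINB8 exosomes, and 11.95, 11.83 and 11.95 in untreated HUVEC. MMP14, the membrane-type protease that activates pro-MMP2 together with TIMP2, gave 9.33, 9.33 and 9.36 with JK exosomes, 9.64, 9.67 and 9.79 with JINB8 exosomes, and 10.22, 10.22 and 10.24 in untreated HUVEC. For both genes the 3 groups did not overlap, with the JINB8-treated arrays between the others. On this scale MMP2 fell by 0.65 ± 0.07 in JK-treated cells (adjusted p = 3.50e-05) and by 0.41 ± 0.07 in JINB8-treated cells (adjusted p = 0.000907). MMP14 fell by 0.88 ± 0.07 (adjusted p = 3.59e-06) and by 0.53 ± 0.07 (adjusted p = 0.000137). Median centring turned MMP2 to 0.002 with JK exosomes (not passing) and 0.32 in JINB8-treated cells (adjusted p = 0.0073), and left MMP14 at -0.05 with JINB8 exosomes, which did not pass.

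Other MMPs that passed, named after their values were seen, moved by less than 2-fold. MMP24 and MMP16 are membrane-type proteases. MMP24 fell by 0.67 in JK-treated cells (adjusted p = 9.19e-05) and by 0.58 in JINB8-treated cells (adjusted p = 0.000240). MMP16 rose by 0.84 (adjusted p = 6.14e-06) and by 0.79 (adjusted p = 8.90e-06), and its other probeset changed by 0.37 and 0.30. The stromelysin MMP3 rose by 0.33 and 0.35 (adjusted p = 0.00933 and 0.00662), the opposite direction to MMP10, in a dim signal range. MMP19, also dim, rose by 0.25 (adjusted p = 0.0149) and by 0.41 (adjusted p = 0.000726), and with median centring it was at 0.07 with JK exosomes and did not pass. The stromelysin MMP11 changed by -0.28 with JK exosomes (adjusted p = 0.0618) and fell by 0.51 with JINB8 exosomes (adjusted p = 0.00366). MMP9, the other gelatinase, changed by 0.18 (adjusted p = 0.105) and 0.10 (adjusted p = 0.348) and did not pass.

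On chromosome 11 the genes MMP7, MMP20, MMP27, MMP8, MMP10, MMP1, MMP3, MMP12 and MMP13 follow each other in the RefSeq annotation, and all are given here for their position, whether or not the naming rule held them. These 9 neighbours did not move as a block. MMP7, MMP10 and MMP1 were lower with each exosome on the quantile scale (MMP1 not with median centring), MMP3 was higher, and MMP20, MMP8, MMP12 and MMP13 did not pass on that scale. With median centring MMP8 (0.67 and 0.62 with JK and JINB8 exosomes), MMP12 (0.51 and 0.56) and MMP13 (0.47 and 0.55) were called higher with each exosome, and with cyclic loess MMP8 (0.36) and MMP13 (0.20) were called higher with JK exosomes, so their calls rest on the scaling. MMP27 changed by 0.42 in JK-treated cells (adjusted p = 0.0232), a call lost without JK-treated replicate 3 (0.38, adjusted p = 0.0674) or without untreated replicate 1 (0.37, adjusted p = 0.0651) or 2 (0.38, adjusted p = 0.0696), and by 0.29 in JINB8-treated cells (adjusted p = 0.0975).

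**Figure D2:**
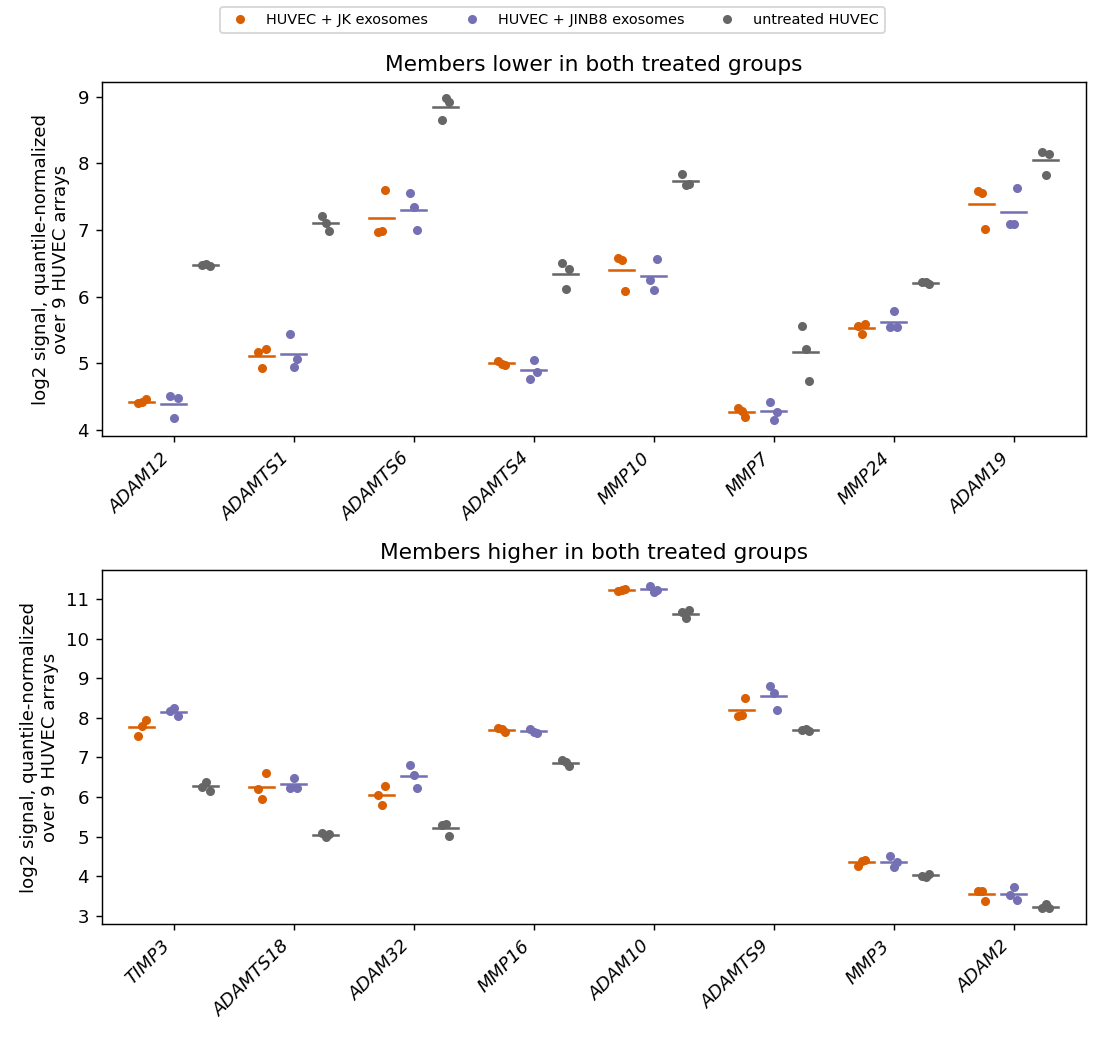
Quantile-normalized log2 signal of single arrays (points) and group means (lines) for the genes called lower (top) or higher (bottom) with each exosome under all 3 scalings, in HUVEC with JK exosomes (orange), with JINB8 exosomes (purple) and untreated (grey). The ADAM12 points lie between 4.18 and 4.51 in treated cells and between 6.46 and 6.50 in untreated cells.

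ADAM12, a protease whose substrates include HB-EGF and IGF-binding proteins, had the lowest log2 change of the 64 genes with either exosome. By its mean over the HUVEC arrays it lay among the dimmest 40% of genes, and the treated arrays exceeded only 18.8% (JK) and 18.1% (JINB8) of genes, so the size of its change rests on a dim signal not shown to be above background. The normalized signal was 4.40, 4.42 and 4.47 with JK exosomes, 4.51, 4.18 and 4.48 with JINB8 exosomes, and 6.48, 6.50 and 6.46 in untreated HUVEC. No treated array came within the untreated range. ADAM12 fell by 2.05 ± 0.09 in JK-treated cells (adjusted p = 4.04e-08) and by 2.09 ± 0.09 in JINB8-treated cells (adjusted p = 3.49e-08).

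ADAM19, a protease active on neuregulins and related to ADAM12, and ADAM28 are added after their values were seen. ADAM19 fell by 0.66 ± 0.18 in JK-treated cells (adjusted p = 0.00957) and by 0.77 ± 0.18 in JINB8-treated cells (adjusted p = 0.00377). ADAM28, a protease found in lymphocytes, changed by -0.61 in JK-treated cells (adjusted p = 0.00218) and by -0.17 with JINB8 exosomes, where it did not pass (adjusted p = 0.301).

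ADAM10 is the sheddase of Notch receptors, VE-cadherin and CX3CL1. Its normalized signal was 11.21, 11.23 and 11.24 with JK exosomes, 11.32, 11.18 and 11.22 with JINB8 exosomes, and 10.67, 10.51 and 10.71 in untreated HUVEC. All treated arrays lay above the untreated ones on this scale, while as deposited they lay below. ADAM10 rose by 0.60 ± 0.08 in JK-treated cells (adjusted p = 0.000121) and by 0.61 ± 0.08 in JINB8-treated cells (adjusted p = 9.81e-05). The change as deposited was -0.68 and -0.65, smaller than the shift of the median gene.

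ADAM17, the sheddase of TNF and of EGF receptor ligands, changed by 0.24 ± 0.10 in JK-treated cells (adjusted p = 0.0731) and by 0.18 ± 0.10 in JINB8-treated cells (adjusted p = 0.162). ADAM15, an adhesive ADAM of endothelial junctions, changed by 0.16 (adjusted p = 0.136) and 0.12 (adjusted p = 0.264). Neither passed on this scale, and both passed with median centring (ADAM17 by 0.55 and 0.57, ADAM15 by 0.42 and 0.45). ADAM17 also passed with JK exosomes without replicate 2 of that group (0.30, adjusted p = 0.0440) and with a variance trend (adjusted p = 0.0494).

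ADAM32 lacks the zinc-binding sequence and is known from testis. Its signal was 6.06, 5.80 and 6.29 with JK exosomes, 6.80, 6.55 and 6.23 with JINB8 exosomes, and 5.30, 5.32 and 5.01 in untreated HUVEC. The treated groups overlapped each other but not the untreated group. ADAM32 rose by 0.84 ± 0.16 in JK-treated cells (adjusted p = 0.00116) and by 1.31 ± 0.16 in JINB8-treated cells (adjusted p = 4.83e-05). By a split taken from general knowledge of the family and not from the sequences, 12 ADAMs have the zinc-binding sequence, of which 2 were called higher and 4 lower with JK exosomes, and 3 higher and 2 lower with JINB8 exosomes. Of the 7 without it, 2 were called higher and 1 lower with JK exosomes, and 2 higher and 0 lower with JINB8 exosomes. Over all genes 26.2% were higher and 22.4% lower with JK exosomes, and 26% and 23.3% with JINB8 exosomes.

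ADAMTS1 and ADAMTS4, which cut aggrecan and versican, were lower with each exosome. ADAMTS1 had 5.16, 4.93 and 5.22 with JK exosomes, 5.44, 4.94 and 5.06 with JINB8 exosomes, and 7.21, 7.11 and 6.99 in untreated HUVEC. Its lowest untreated array was more than 1 log2 unit above the highest treated array. ADAMTS1 fell by 2.00 ± 0.13 in JK-treated cells (adjusted p = 6.24e-07) and by 1.95 ± 0.13 in JINB8-treated cells (adjusted p = 6.96e-07).

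ADAMTS4 had 5.04, 4.99 and 4.98 with JK exosomes, 4.77, 5.06 and 4.87 with JINB8 exosomes, and 6.51, 6.12 and 6.41 in untreated HUVEC. The groups treated with exosomes overlapped each other and lay below the untreated arrays, and ADAMTS4 was among the dimmest 40% of genes in HUVEC. The changes were -1.34 ± 0.11 (adjusted p = 3.33e-06) and -1.45 ± 0.11 (adjusted p = 1.79e-06) with JK and JINB8 exosomes. ADAMTS9, another protease of aggrecan and versican, is added after its values were seen because it moved the opposite way. It had 8.04, 8.07 and 8.51 with JK exosomes, 8.79, 8.63 and 8.21 with JINB8 exosomes, and 7.69, 7.72 and 7.68 in untreated HUVEC. ADAMTS9 rose by 0.51 ± 0.15 (adjusted p = 0.0180) and by 0.84 ± 0.15 (adjusted p = 0.000883), and the JK call was lost without JK-treated replicate 3 (0.35, adjusted p = 0.0690). Of the 6 proteoglycanases measured, 2 were called higher and 2 lower with each exosome. Over all genes 26.2% were higher and 22.4% lower with JK exosomes, and 26% and 23.3% with JINB8 exosomes. Besides ADAMTS9, the higher gene was ADAMTS8 with JK exosomes (0.24, adjusted p = 0.0351) and ADAMTS5 with JINB8 exosomes (0.31, adjusted p = 0.00849). With median centring these were at 0.15 and 0.24 and did not pass.

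ADAMTS6 and ADAMTS18 were the other ADAMTS genes past 2-fold. ADAMTS6, linked in mouse to heart development and fibrillin matrix, had 6.97, 6.99 and 7.60 with JK exosomes, 7.55, 7.35 and 7.00 with JINB8 exosomes, and 8.65, 8.97 and 8.92 in untreated HUVEC. All treated arrays were below the untreated ones, and ADAMTS6 fell by 1.66 ± 0.18 (adjusted p = 2.50e-05) and by 1.55 ± 0.18 (adjusted p = 3.85e-05). ADAMTS18 had 6.20, 5.94 and 6.61 with JK exosomes, 6.23, 6.48 and 6.23 with JINB8 exosomes, and 5.10, 4.99 and 5.06 in untreated HUVEC. ADAMTS18 rose by 1.20 ± 0.14 (adjusted p = 5.15e-05) and by 1.26 ± 0.14 (adjusted p = 3.26e-05). ADAMTS13, the protease of von Willebrand factor, changed by 0.08 (adjusted p = 0.472) and 0.07 (adjusted p = 0.536) and did not pass.

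Of the inhibitors, TIMP3, which stays bound to the matrix and inhibits MMPs, ADAM17 and the proteoglycan-cutting ADAMTS enzymes, was higher in the treated cells. Its normalized signal was 7.54, 7.79 and 7.94 with JK exosomes, 8.17, 8.25 and 8.05 with JINB8 exosomes, and 6.26, 6.38 and 6.16 in untreated HUVEC. The 3 groups did not overlap, with the JINB8-treated arrays highest. TIMP3 rose by 1.49 ± 0.11 in JK-treated cells (adjusted p = 1.59e-06) and by 1.89 ± 0.11 in JINB8-treated cells (adjusted p = 2.67e-07). The probesets of TIMP3 disagreed in size: the other one, dimmer in HUVEC, changed by 0.10 and 0.25. As deposited the TIMP3 values used here averaged 7.23 with JK exosomes, 7.65 with JINB8 exosomes and 7.47 in untreated HUVEC, so the rise is relative to the shift of the median gene.

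TIMP1, a secreted inhibitor of most MMPs, gave 10.86, 10.60 and 10.59 with JK exosomes, 10.54, 10.63 and 10.51 with JINB8 exosomes, and 10.99, 11.12 and 10.97 in untreated HUVEC. On this scale TIMP1 fell by 0.34 ± 0.09 (adjusted p = 0.0105) and by 0.47 ± 0.09 (adjusted p = 0.00155), but with median centring it was at 0.17 and 0.12 and did not pass. TIMP2, the partner of MMP14 on pro-MMP2, changed by 0.15 ± 0.08 in JK-treated cells (adjusted p = 0.142) and rose by 0.40 ± 0.08 in JINB8-treated cells (adjusted p = 0.00164). With median centring TIMP2 passed with JK exosomes too, at 0.67 (adjusted p = 3.96e-05). TIMP4 changed by -0.05 (adjusted p = 0.789) and 0.05 (adjusted p = 0.771) and did not pass.

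Genes around the proteases were taken from a list of activators, other inhibitors, cathepsins, sheddase partners, substrates and ADAMTS-like genes. Of its 56 measured genes, 3 were called higher and 24 lower with JK exosomes, and 6 higher and 23 lower with JINB8 exosomes, beside the 26.2% and 22.4% of all genes with JK and 26% and 23.3% with JINB8 exosomes given above. The list's median log2 change was -0.23 and -0.17, while that of all genes was 0.02 in each comparison. In the list's group of activators and plasminogen system genes, 0 of 10 were called higher and 6 lower with JK exosomes. With JINB8 exosomes 0 were higher and 4 lower, against the same shares of all genes. PLAU, the urokinase that makes plasmin, averaged 6.99 ± 0.09 with JK exosomes and 9.38 ± 0.06 in untreated HUVEC (normalized log2 signal, SD, n = 3 each), a log2 change of -2.38, and its change with JINB8 exosomes was -2.45. The log2 change of its receptor PLAUR was -2.01 and -2.11 with JK and JINB8 exosomes.

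Of the other inhibitors on the list, RECK, a membrane-anchored inhibitor of MMPs, averaged 9.32 ± 0.06 with JK exosomes and 7.96 ± 0.13 in untreated HUVEC. RECK rose by 1.36 and 1.37 with JK and JINB8 exosomes, and as deposited changed by -0.17 and -0.14. The cathepsin CTSS changed by -1.96 and -1.90, and CTSK, a collagen-cutting cathepsin, fell by 1.09 with JK exosomes. Among substrates, the chemokine CX3CL1, which ADAM10 and ADAM17 release, changed by -1.80 and -1.72, versican (VCAN) by -1.47 and -1.51, and the basement membrane collagen COL4A1 fell by 1.77 with JK exosomes. TGFA, an ADAM17 substrate, fell by 1.70 with JINB8 exosomes, and TSPAN33, a tetraspanin partner of ADAM10, fell by 1.08. All of these passed the test in the comparisons given. Only the 8 listed genes with the smallest p were named per comparison. CTSK, COL4A1, TGFA and TSPAN33 therefore have a value for 1 exosome only, which is not evidence of a difference between the exosomes. In the direct comparison of JINB8-treated with JK-treated HUVEC, 0 of the 56 listed genes passed, beside 0% of all genes.

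The direct comparison of JINB8-treated with JK-treated HUVEC asks whether the response differs between exosomes of JINB8 and of Jurkat. It used values as deposited because these arrays lay on alike levels. None of the 64 genes passed (limma, smallest adjusted p = 0.183), as was the case for 0% of all genes. An unadjusted p under 0.05 was reached by 8 of the 64 genes and by 9.11% of all genes. The groups did not overlap for 9 of the 64 genes and for 17.5% of all genes, so the protease and inhibitor genes did not exceed the background by this count.

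MMP14 had the smallest p of the 64 genes in this comparison, with 9.16, 9.22 and 9.33 in JINB8-treated cells and 8.87, 8.80 and 8.89 in JK-treated cells (log2 signal as deposited). The groups did not overlap, and the difference was 0.38 ± 0.09 (adjusted p = 0.183). TIMP3 had 7.67, 7.75 and 7.54 in JINB8-treated cells and 7.04, 7.24 and 7.41 in JK-treated cells, a difference of 0.42 ± 0.11 (adjusted p = 0.259). MMP2 had 11.05, 11.13 and 11.14 in JINB8-treated cells and 10.92, 10.79 and 10.81 in JK-treated cells, a difference of 0.27 ± 0.09 (adjusted p = 0.383). TIMP2 had 10.75, 10.93 and 10.99 in JINB8-treated cells and 10.63, 10.63 and 10.61 in JK-treated cells, a difference of 0.27 ± 0.09 (adjusted p = 0.40). In each of these 4 genes the JINB8-treated arrays were all above the JK-treated ones, and the adjusted p missed the threshold. With array weights 2 of the 64 genes passed, beside 2.05% of all genes, namely MMP14 at 0.38 (adjusted p = 0.0280) and TIMP3 at 0.52 (adjusted p = 0.0231).

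ADAM32 differed by 0.46 ± 0.15 (adjusted p = 0.377) and ADAM28 by 0.40 ± 0.14 (adjusted p = 0.40), also without passing. MMP1 differed by -0.01 ± 0.19 (adjusted p = 0.988), ADAMTS1 by 0.01 ± 0.14 (adjusted p = 0.988), ADAM10 by 0.03 ± 0.09 (adjusted p = 0.950) and MMP10 by -0.15 ± 0.17 (adjusted p = 0.831). TIMP1 differed by -0.10 ± 0.11 and TIMP4 by 0.06 ± 0.15, with overlapping groups. ADAM15 (-0.03), ADAM17 (-0.03), ADAMTS4 (-0.14), ADAMTS13 (-0.06) and MMP9 (-0.11) did not pass and overlapped as well.

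**Figure D3:**
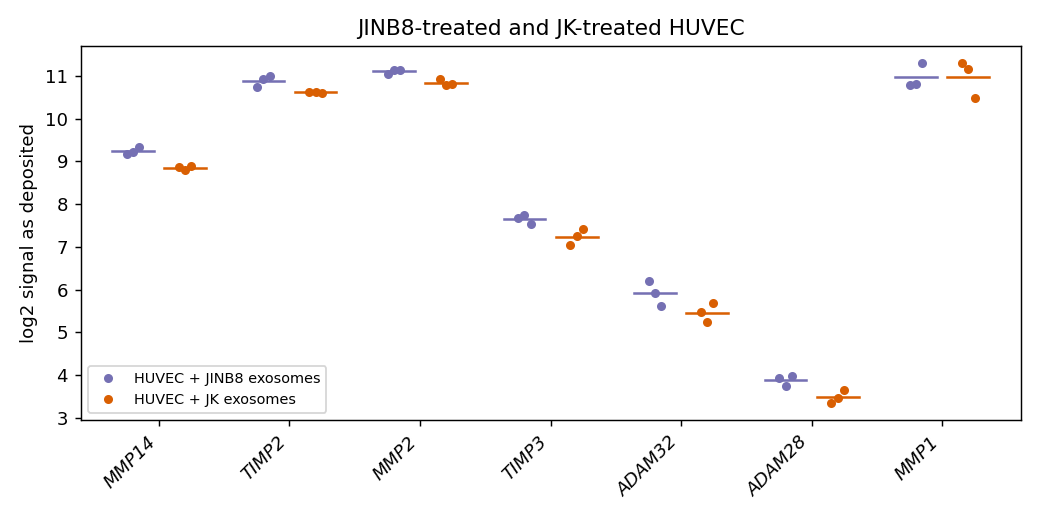
Deposited log2 signal of single arrays (points) with group means (lines) for 7 genes in HUVEC with JINB8 exosomes (purple) and with JK exosomes (orange). The JINB8-treated points of MMP14, TIMP2, MMP2 and TIMP3 all lie above the JK-treated points, and those of MMP1 overlap.

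In RNA of the exosomes themselves, JINB8 against JK, 0 of the 64 genes passed (limma, smallest adjusted p = 0.246), beside 0.679% of all genes. An unadjusted p under 0.05 was reached by 3 of them and by 8.06% of all genes, and the groups did not overlap for 4 of them and for 12.9% of all genes. The neutrophil collagenase MMP8 had the smallest p, with 3.95, 4.16 and 4.26 in JINB8 exosome RNA and 4.57, 4.40 and 4.35 in JK exosome RNA. Every JINB8 value was below every JK value, by -0.32 ± 0.10 on average (adjusted p = 0.246). ADAMTS9 differed by -0.18 ± 0.08 (adjusted p = 0.590) and ADAM32 by 0.19 ± 0.08 (adjusted p = 0.604). ADAM8, ADAMTS10 and ADAM11 differed by -0.18, 0.19 and 0.16. MMP14 differed by -0.12 ± 0.10, TIMP3 by 0.10 ± 0.08 and MMP2 by -0.02 ± 0.08, all with overlapping groups and without passing. The same held for TIMP1 (0.06), TIMP2 (0.02), TIMP4 (0.03), MMP1 (-0.01), MMP9 (-0.01), MMP10 (-0.17), ADAM10 (-0.10), ADAM15 (0.09), ADAM17 (0.01), ADAMTS1 (-0.01), ADAMTS4 (-0.06) and ADAMTS13 (-0.04).

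Exosome RNA was also set against the HUVEC that received the same exosomes, on deposited values. Cells and vesicles differ in kind of sample, and the spread of gene values within an array was narrower in exosome RNA (interquartile range 1.48 in JK and 1.5 in JINB8 exosome RNA) than in treated HUVEC (3.10 and 3.12), so sizes rest on the scale. Of the 64 genes, 39 were higher and 19 lower in JK exosome RNA than in JK-treated HUVEC, beside 43.6% and 49.2% of all genes. In JINB8 exosome RNA 40 were higher and 19 lower than in JINB8-treated HUVEC, beside 44.2% and 48.3% of all genes. Among the 34 genes that were dim in HUVEC, 30 were higher and 0 lower in each comparison, beside 83.6% higher and 8.05% lower of all genes dim in HUVEC for JK and 83.5% and 7.95% for JINB8. At least 2-fold differences were higher in 16 genes and lower in 15 in each comparison, beside 22.6% and 39% of all genes for JK and 23.1% and 38.5% for JINB8. The median log2 difference of the 64 genes was 0.62 and 0.58, against -0.15 and -0.11 over all genes.

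MMP1 gave the lowest log2 difference of the 64 genes, with 4.10, 4.38 and 4.08 in JK exosome RNA and 11.30, 11.15 and 10.49 in JK-treated HUVEC. The groups lay more than 6 log2 units apart, and the difference was -6.79 ± 0.18 for JK and -6.78 ± 0.18 for JINB8. ADAM10 had 4.91, 4.90 and 4.92 in JK exosome RNA and 10.79, 10.80 and 10.82 in JK-treated HUVEC, a difference of -5.90 ± 0.09 for JK and -6.03 ± 0.09 for JINB8. TIMP1 had 5.10, 5.11 and 5.15 in JK exosome RNA and 10.45, 10.13 and 10.16 in JK-treated HUVEC, a difference of -5.13 ± 0.09 for JK and -4.97 ± 0.09 for JINB8. All of these genes were far lower in the vesicle RNA on every array.

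The other large negative differences belonged to ADAM9, a sheddase of several growth factors (-5.39 and -5.46 for JK and JINB8), TIMP2 (-5.32 and -5.57), MMP2 (-4.78 and -5.06), ADAM17 (-4.47 and -4.43), MMP14 (-3.25 and -3.76), MMP16 (-2.84 and -2.70) and ADAM23 (-2.60 and -2.68), an adhesion ADAM without the zinc-binding sequence. MMP16 and ADAM23 are outside the naming rule and were added after their values were seen. With cyclic loess the differences were smaller, at -0.63 and -1.13 for MMP2, -0.39 and -0.95 for MMP14 and -0.11 and -0.23 for ADAM23, and at -1.77 and -1.97 for ADAM9, -1.62 and -2.01 for TIMP2, -2.67 and -2.66 for ADAM17 and -2.22 and -2.14 for MMP16. At least 2-fold lower under all 4 scalings (deposited, quantile, median centred and cyclic loess) were 9 genes for JK and 10 for JINB8, a list drawn up after the values were seen: MMP1, MMP16, ADAM9, ADAM10, ADAM17, ADAM32, ADAMTS6, TIMP1 and TIMP2 in each, and MMP2 for JINB8, beside 21.1% and 21.3% of all genes. MMP16 was on this list by its used probeset. Its other probeset averaged 5.80 in JK exosome RNA and 5.93 in JK-treated HUVEC (deposited log2 signal). For JINB8 these averages were 5.69 and 5.82, so the MMP16 difference rests on the probeset. For MMP1 the smallest value under the 4 scalings was -3.57 for JK and -3.65 for JINB8.

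On the other side, ADAM11, a brain ADAM without the zinc-binding sequence, had 6.53, 6.67 and 6.77 in JK exosome RNA and 4.73, 5.24 and 5.07 in JK-treated HUVEC. The groups did not overlap, and ADAM11 was higher by 1.64 ± 0.11 for JK and 1.82 ± 0.11 for JINB8. ADAMTS19 was higher by 1.76 and 1.73, and ADAMTS5, an aggrecanase, by 1.56 and 1.54. MMP20 (1.56 and 1.56), the pseudogene ADAM6 (1.54 and 1.66), MMP9 (1.29 and 1.39) and TIMP4 (1.26 and 1.23) were higher too. So were MMP8 (1.44 and 1.22), ADAMTS12 (1.34 and 1.15), ADAM30 (1.34 and 1.33), MMP25 (1.27 and 1.44) and ADAMTS16 (1.27 and 1.33). ADAMTS13 (0.88 and 0.91), ADAMTS4 (0.98 and 1.06) and ADAMTS1 (0.44 and 0.42, turning to -0.21 and -0.24 with cyclic loess) were higher by less, and MMP10 was lower (-0.78 and -0.80). For JK, MMP10 did not pass with quantile normalization (-0.36, adjusted p = 0.0791) or median centring (-0.33, adjusted p = 0.0679). At least 2-fold higher under all 4 scalings, again a list drawn up after the values were seen, were 5 genes for JK (ADAM11, ADAMTS16, ADAMTS17, ADAMTS19 and MMP25) and 6 for JINB8 (the same 5 and ADAM33), beside 12.4% and 12.5% of all genes. ADAM15 was lower as deposited (-1.73 and -1.61) but higher after quantile normalization (0.29 and 0.43) and cyclic loess (1.16 and 1.23), so its direction is not settled. TIMP3 was lower by -2.05 and -2.38 on its used probeset, while the mean of its probesets gave 0.12 and -0.13. Its other probeset lay the opposite way, averaging 5.85 in JK exosome RNA and 3.56 in JK-treated HUVEC (deposited log2 signal). For JINB8 these averages were 5.81 and 3.70, so the direction of TIMP3 rests on the probeset. In the test of whether the difference between exosome RNA and treated HUVEC itself differed between JINB8 and JK, 0 of the 64 genes passed (limma, smallest adjusted p = 0.114), beside 145 of all genes (0.787%).

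**Figure D4:**
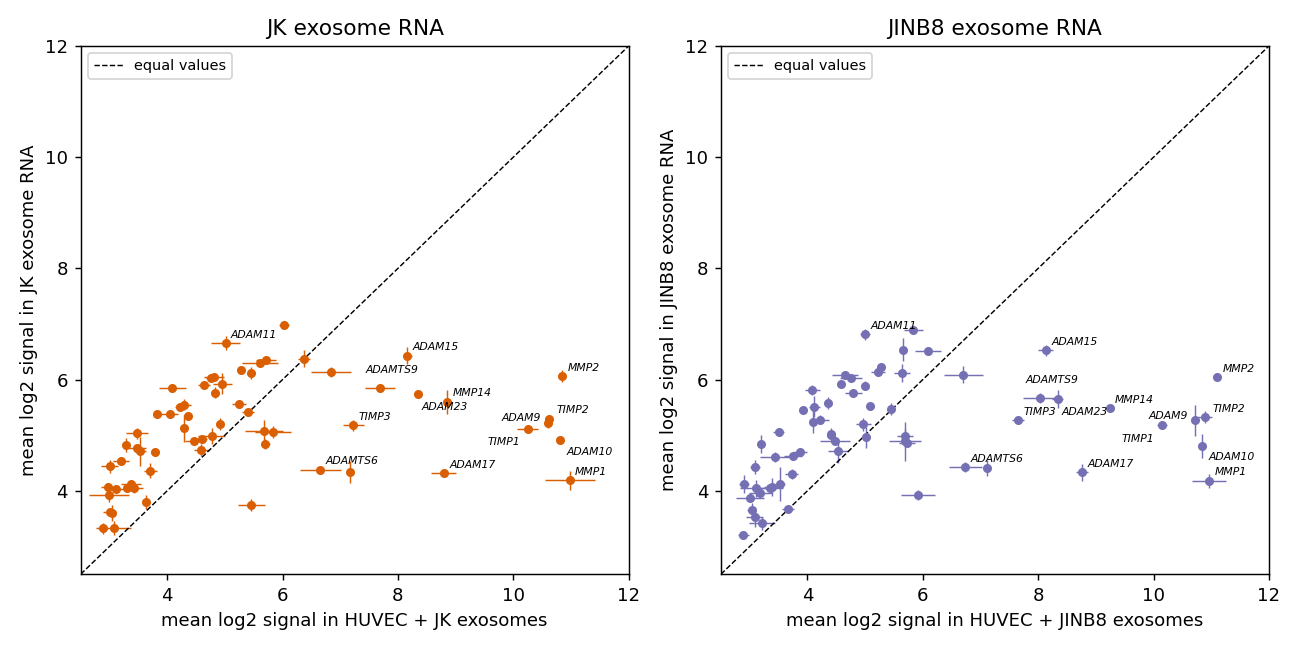
Mean deposited log2 signal of each of the 64 genes (bars: SD, n = 3) in JK exosome RNA against JK-treated HUVEC (left, orange) and in JINB8 exosome RNA against JINB8-treated HUVEC (right, purple), with the line of equal values dashed. Genes with high HUVEC signal such as MMP1, ADAM10, TIMP1 and TIMP2 lie far below the line, and most genes with low HUVEC signal lie above it.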

How the data were processed

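Affymetrix Expression Console made the deposited values, per the submitters' processing notes; its settings, and which arrays it normalized as a set, are not stated there. The authors deposited log2 values with no detection calls, which leaves signal over background unknown. Per the labels' protocols 300 ng of total RNA were labelled per sample. Of 33297 probesets 19460 had 1 symbol, 1754 had several and 12083 were not listed. All 64 genes matched RefSeq by Entrez identifier, with 0 symbols changed.

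Limma 3.58.1 in R 4.3.3 (lmFit, eBayes, two-sided) was fitted over the arrays of each design and p-values were adjusted by Benjamini-Hochberg across 18417 genes (threshold 0.05). Comparisons with untreated HUVEC used 9 HUVEC arrays, quantile-normalized. JINB8-treated against JK-treated HUVEC used the same 9 as deposited, exosome RNA its own 6, and exosome RNA against treated HUVEC 12. The fit was tested on simulated data, and 3 arrays per group limit its precision. For 3 arrays against 3, the smallest exact two-sided permutation p is 0.1. No label ties replicates to separate cultures, so the p-values reflect spread among these arrays that may be technical.

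The genes, lists and tests were chosen with earlier results of these data known. The text names genes past the test, at least 2-fold and without overlap against untreated HUVEC. Elsewhere it names up to 8 called genes at each end or, with 0 calls, the 6 with the smallest p. To these it adds the TIMPs, MMP1, MMP2, MMP9, MMP10, MMP14, ADAM10, ADAM15, ADAM17, ADAMTS1, ADAMTS4 and ADAMTS13 and up to 8 genes of the surrounding list per comparison. Genes outside this rule are named for their position or after their values were seen. Alternatives were other scalings, no dim genes, all probesets, probeset means, array weights, robust fitting with a variance trend, a replicate block, other sets of arrays and leaving out each array.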

Additional observations from a re-analysis of the deposited data

How the results depend on the processing

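The scale decides the direction of much of the comparison with untreated HUVEC. On values as deposited 64 of the 64 genes were called with JK exosomes and 63 with JINB8 exosomes, all lower, by construction of the level shift. Over all 18417 genes, 18319 and 18286 were called there, so these counts are close to the background. Without the 40% dimmest genes in HUVEC, 30 of the 64 genes were kept, of which 17 were called with JK and 20 with JINB8 exosomes. Of all 18417 genes 7367 fell away there, and 6345 and 6473 of the rest were called. For exosome RNA against treated HUVEC 32 of the 64 genes fell away, and 30 of the rest were called for JK and 31 for JINB8. Over all genes 10372 and 10381 were called there, again without the 40% dimmest. Array weights gave 2 calls between JINB8-treated and JK-treated HUVEC, where over all genes the calls were 377 with array weights, 93 in 1 fit of all 15 arrays, 23 with a variance trend and 0 as reported. In JINB8 against JK exosome RNA 125 genes of the whole array were called, 44 over all probesets, and 54 to 100 on leaving out an array. Leaving out each array in turn gave 24 to 27 called genes with JK exosomes, 25 to 29 with JINB8 exosomes, 0 to 0 in both comparisons of JINB8 with JK, and 58 to 59 in each comparison of exosome RNA with HUVEC. Over all genes it gave 7801 to 8485 calls with JK and 7830 to 8594 with JINB8 exosomes. For exosome RNA against HUVEC it gave 16826 to 17050 for JK and 16850 to 16899 for JINB8. ADAM2, ADAM8, ADAM9, ADAM11, ADAM20, ADAM21, ADAMTS8, ADAMTS9, MMP19 and MMP27 lost a call on leaving out some array. ADAM11 moved to -0.17 without JK-treated replicate 1, and ADAM21 to -0.18 without JK-treated replicate 3.

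As deposited, with JK exosomes the log2 changes that turned were -0.69 for ADAMTS18, -0.24 for TIMP3, -1.11 for TIMP2, -1.78 for MMP9, -0.68 for ADAM10, -1.36 for ADAM15, -1.24 for ADAM17, -1.76 for ADAMTS13, -0.17 for RECK, -0.99 for ADAM2, -1.64 for ADAM20, -1.07 for ADAM32, -1.57 for ADAMTS3, -1.64 for ADAMTS8, -1.07 for ADAMTS9, -0.83 for MMP16, -1.71 for MMP19, -1.25 for MMP27 and -1.48 for MMP3. With JINB8 exosomes they were -0.61 for ADAM32, -0.68 for ADAMTS18, -0.85 for TIMP2, -1.94 for TIMP4, -1.89 for MMP9, -0.65 for ADAM10, -1.39 for ADAM15, -1.27 for ADAM17, -1.82 for ADAMTS13, -0.14 for RECK, -0.95 for ADAM2, -1.48 for ADAM8, -1.03 for ADAM9, -1.33 for ADAMTS3, -1.60 for ADAMTS5, -0.73 for ADAMTS9, -0.89 for MMP16, -1.58 for MMP19 and -1.46 for MMP3. Median centring turned TIMP1 (0.17 and 0.12) and MMP2 (0.0020 and 0.32) with JK and JINB8 exosomes. In exosome RNA against treated HUVEC, ADAM15 turned with quantile normalization (0.29 and 0.43) and cyclic loess (1.16 and 1.23), ADAMTS1 with cyclic loess (-0.21 and -0.24), and TIMP3 with the mean of its probesets for JK (0.12). Apart from the scaling itself the cause was not tested.

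The replicate numbers did not pair the arrays, since correlations of same-numbered deviations ran between -0.45 and 0.35. Between JK-treated and JINB8-treated HUVEC they were all negative, at -0.20, -0.18 and -0.45 for replicates 1, 2 and 3. These opposite deviations are part of the spread in the direct comparison of those groups, and their cause was not tested. With the replicate number as a block the calls were 27 with JK exosomes, 27 with JINB8 exosomes, 0 between JINB8-treated and JK-treated HUVEC, 0 between the exosome RNAs, 58 for JK exosome RNA against treated HUVEC and 59 for that of JINB8. In the same order the calls over all genes were 8618, 8810, 0, 104, 17068 and 17006.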
